A study of Mus musculus with 2 samples.

Results

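The 45 genes described here are a set of interferon-stimulated genes, the transcription factors that drive them, and the receptors and kinases through which interferons signal. They were listed by gene symbol and matched to probe sets that carry a single platform symbol. For 44 of the 45 such a probe set was found, and Ifi44 is the exception. Where a gene had several, the brightest was used, and a gene was compared if its log2 signal was 7 or more in at least 1 array. That left 33 genes, out of 9897 compared among 18193 genes with a probe set. Of the 33, 27 are called interferon-stimulated genes here, counting Ifi202b, and 6 are receptors or kinases. In all counts that label also covers the listed transcription factors, 6 of which were compared.

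Messenger RNA was measured on 2 Affymetrix mouse expression arrays. The knockout array held RNA of cultured rib chondrocytes that lack miR-140, a microRNA abundant in cartilage, and the wild-type array held RNA of cultured wild-type rib chondrocytes. Both cultures came from mice aged 5 days with a strain label that names C57BL/6 and CBA, and neither label records a treatment or an infection. The sources used here do not say how the deletion was made, how many animals each culture came from, or what share each strain had. The study looked for targets of miR-140. With 1 array per group there is no spread between cultures and no test, so each value describes this pair of arrays. Every difference is on the log2 scale, knockout minus wild type.

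Type I interferons bind the receptor chains Ifnar1 and Ifnar2, and type II interferon binds Ifngr1 and Ifngr2. The kinases Jak1, shared by both receptors, and Tyk2, bound to Ifnar1, phosphorylate STAT proteins. Stat2 and Irf9 act in a complex that binds the interferon-stimulated response element (ISRE) in the promoters of antiviral genes. Many cells keep a low level of these transcripts without added interferon. Ifi202b belongs to the p200 family of interferon-inducible DNA-binding proteins, whose genes lie in a cluster on chromosome 1. It is known for its variation between inbred mouse strains and for low expression in C57BL/6.

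Promoter sequence was available from RefSeq (build GRCm38.p6, the C57BL/6J genome) for 38 of the 45 genes, in 44 windows of 300 bases that run from 250 bases before a transcript start to 50 after it. The 5 stretches below give the 250 bases before the start, 5′ to 3′ on the strand of the gene. They are shown because they set Ifi202b beside 4 genes of the response that had lower signal in the knockout array. Capitals mark matches to the ISRE core GAAANNGAAA on either strand, where N is any base. All 4 of these genes hold the core, but not every gene with lower signal does. Ifit2, at -0.27, has a window without it and is not shown.
Ifi202b, chr1:173982845-173983094, minus strand: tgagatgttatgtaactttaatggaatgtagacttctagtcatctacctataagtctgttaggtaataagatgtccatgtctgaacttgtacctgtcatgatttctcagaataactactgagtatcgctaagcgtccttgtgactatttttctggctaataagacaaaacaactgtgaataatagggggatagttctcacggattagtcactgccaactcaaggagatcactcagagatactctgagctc
Ifit1, chr19:34640639-34640888, plus strand: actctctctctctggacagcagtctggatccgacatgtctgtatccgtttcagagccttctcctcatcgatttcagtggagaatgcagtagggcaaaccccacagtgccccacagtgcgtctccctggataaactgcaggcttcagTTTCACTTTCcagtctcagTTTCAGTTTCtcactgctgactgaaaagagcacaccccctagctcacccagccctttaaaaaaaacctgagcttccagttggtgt
Ifit3, chr19:34583279-34583528, plus strand: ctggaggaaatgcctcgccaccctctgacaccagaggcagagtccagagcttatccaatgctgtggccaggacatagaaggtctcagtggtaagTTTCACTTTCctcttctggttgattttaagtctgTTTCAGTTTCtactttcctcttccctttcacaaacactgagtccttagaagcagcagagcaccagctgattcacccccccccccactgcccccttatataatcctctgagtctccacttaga
Bst2, chr8:71537473-71537722, minus strand: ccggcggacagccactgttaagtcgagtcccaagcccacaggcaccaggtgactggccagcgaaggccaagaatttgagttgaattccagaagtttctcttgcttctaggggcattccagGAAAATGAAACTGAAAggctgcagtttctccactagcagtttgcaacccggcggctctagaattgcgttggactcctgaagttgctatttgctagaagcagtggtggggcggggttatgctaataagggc
Igtp, chr11:58199306-58199555, plus strand: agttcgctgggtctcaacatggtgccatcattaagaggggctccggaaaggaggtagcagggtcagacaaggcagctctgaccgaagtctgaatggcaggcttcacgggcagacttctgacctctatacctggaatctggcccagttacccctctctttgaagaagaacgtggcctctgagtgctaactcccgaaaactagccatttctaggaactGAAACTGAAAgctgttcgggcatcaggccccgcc

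The core occurs in the windows of 16 of the 32 interferon-stimulated genes that have one, and in none of the 6 windows of receptors and kinases. It occurs in 3.44% of all 32851 promoter windows and for 3.99% of the genes that have one. Ifit1 and Ifit3 each hold a pair of matches on the reverse strand, at 104 and 85 bases before the start for Ifit1 and at 156 and 122 for Ifit3. Bst2 holds 2 matches that overlap each other, at 130 and 124 bases before the start, and Igtp holds 1 at 34. Ifi202b has no match in its window, which says only that these letters are not there. Overlapping pairs of the core also occur in Oas1a, Irgm1 and Gbp3. The STAT-binding GAS core, searched as TTCNNNGAA, reads the same on both strands and occurs for 13 of the 38 listed genes, beside 9.55% of all genes with a window and 8.30% of all windows. It occurs in the Ifi202b window at 148 bases before the start, and it overlaps an ISRE core in Bst2 and Ifitm3.

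Ifi202b had the highest difference of all 9897 genes compared. Its probe set read 9.61 in the knockout array and 4.87 in the wild-type array. The difference of 4.74 is 26.7-fold on the linear scale. The wild-type value lies under the floor of 7, close to background, so the size of the fold is uncertain, and with low values raised to 7 the difference is 2.61. A further probe set, which the platform lists for Ifi202b together with LOC100044068 and which was therefore not compared, read 10.17 in the knockout and 3.95 in the wild type. Both probe sets thus had high signal in the knockout array and signal near background in the wild-type array. Both also carry the suffix of probe sets that match several transcripts, and p200 genes are similar in sequence, so which transcript of the family gave the signal is uncertain.

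The rest of the p200 family did not share a difference of that size. Ifi204, a nuclear p200 protein studied in macrophage and osteoblast differentiation, read 7.26 in the knockout and 6.02 in the wild type. Its difference of 1.24 is 2.37-fold and becomes 0.26 with low values raised to 7. A probe set listed jointly for Ifi204, Mndal, Ifi205 and Ifi211 went the other way, at 7.50 in the knockout and 7.92 in the wild type. Ifi203 read 7.98 in the knockout and 8.08 in the wild type, a difference of -0.10. The 3 probe sets listed jointly for Ifi203 and related loci stayed under the floor and differed by -0.14, -0.03 and 0.88. No common direction was therefore seen for the neighbours of Ifi202b within its own family.

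The 10 genes with a probe set on each side of Ifi202b on chromosome 1 were placed in order, and 7 of these 20 neighbours reached the floor. Apart from Ifi204, the neighbours that reached it lay between -0.17 for Ackr1, an atypical chemokine receptor, and 0.10 for Fh1, the fumarase gene. The 7 had a median of -0.06. Under the floor, Ifi207 differed by 0.50, Ifi209 by 0.37, Mndal by -0.50 and Kmo by -0.40. Aim2, the DNA sensor of the same cluster, read 4.59 in the knockout and 4.70 in the wild type. Mir140 lies on chromosome 8, so Ifi202b is not a neighbour of the deleted locus.

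**Figure D1:**
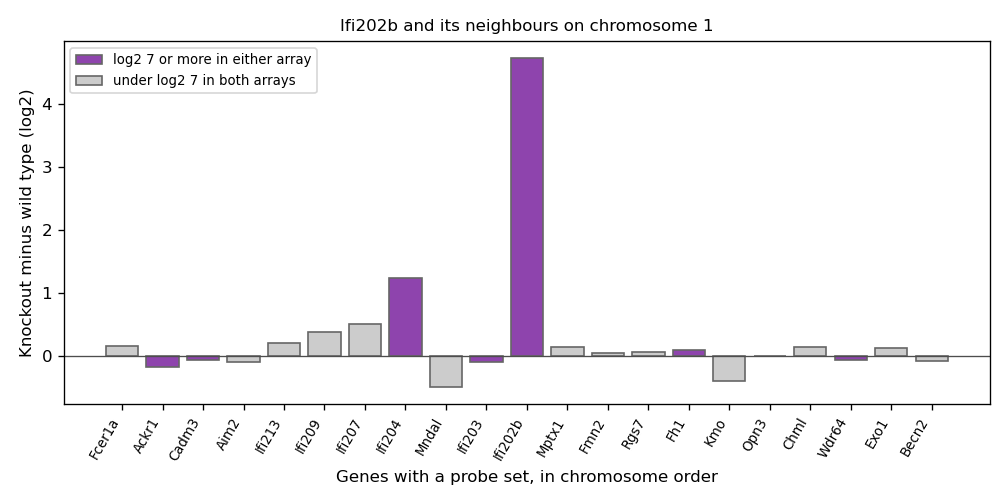
Knockout minus wild-type difference in log2 signal (vertical axis) for Ifi202b and the 10 genes with a probe set on each side of it, in chromosome order (horizontal axis, distances not to scale). Purple bars are genes with log2 7 or more in either array and grey bars are genes under 7 in both; Ifi202b stands at 4.74 and Ifi204 at 1.24, and the others lie between -0.50 and 0.50.

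Against this, most of the interferon response differed little between the arrays. The 26 interferon-stimulated genes other than Ifi202b had a median of -0.11, beside -0.05 for all genes compared, and the middle 50% of them lay between -0.19 and -0.01. Of these 26 genes 20 had lower signal in the knockout array (76.9%), beside 59.2% of all genes. With Ifi202b and the receptors and kinases included, 22 of the 33 listed genes were lower (66.7%). After centring each difference on the median of all genes, 17 of the 33 were lower (51.5%), where the centring itself puts the median of all genes at 0. At least 2-fold higher signal was found for 2 members, Ifi202b and Ifi204, beside 0.475% of all genes. At least 2-fold lower signal was found for 1, Ifit1, beside 1.22% of all genes. At 1.5-fold, Stat2 joins those with higher signal (3 genes, beside 1.56% of all genes) and Usp18 joins those with lower signal (2 genes, beside 3.56% of all genes). Differences smaller than 0.25 in size were found for 24 of the 33 (72.7%), beside 74.2% of all genes.

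The floor shapes these counts. Ifi202b, Ifi204 and Stat2 passed it through the knockout array alone, so they could enter only with higher signal there, and no count over the genes that passed supports their direction. The 30 members with log2 7 or more in both arrays differed by -1.16 to 0.34, and none of these was 2-fold higher. Just inside the floor were Oasl1, with 7.01 in the knockout and 7.03 in the wild type, and Rsad2, with 7.02 in the knockout and 7.19 in the wild type. Just outside it were Parp14, at 6.77 in the knockout and 6.59 in the wild type, and Mx2, at 6.64 in the knockout and 6.67 in the wild type.

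**Figure D2:**
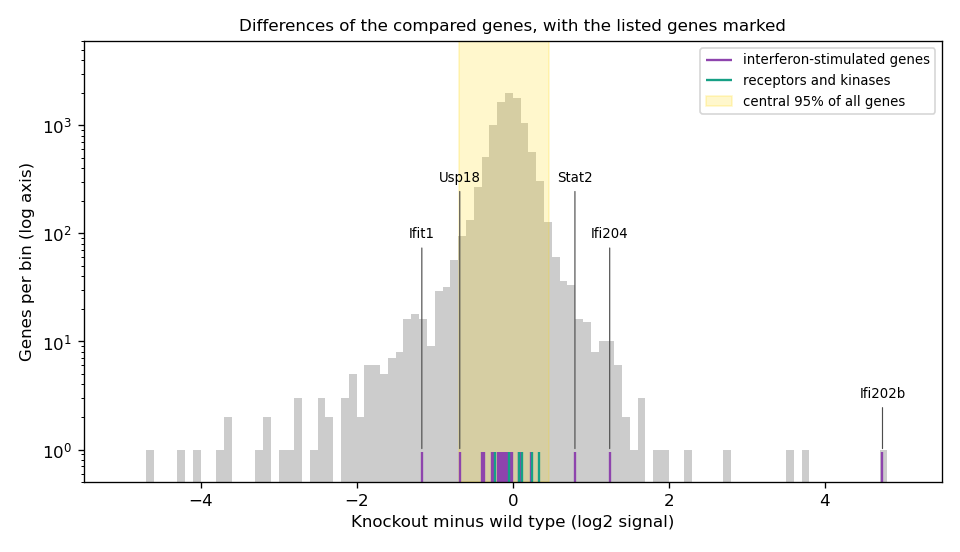
Number of compared genes per bin of 0.1 (vertical axis, log scale) against the knockout minus wild-type difference in log2 signal (horizontal axis). Ticks mark interferon-stimulated genes (purple) and receptors and kinases (green), and the shaded band is the central 95% of all genes, from -0.69 to 0.47; 29 of the 33 listed genes lie inside it, and Ifi202b, Ifi204, Stat2 and Ifit1 lie outside.

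The IFIT genes encode proteins that bind viral RNA and hold back its translation, and all 3 had lower signal in the knockout array. Ifit1, which recognises RNA without the methylated cap of the host, read 7.37 in the knockout and 8.53 in the wild type. Its difference of -1.16 is 2.24-fold and the lowest of the compared genes in the list. Ifit2 read 7.60 in the knockout and 7.87 in the wild type, and Ifit3 read 8.20 in the knockout and 8.45 in the wild type. Those differences, -0.27 and -0.25, are inside the central 95% of all genes. The 3 genes are neighbours on chromosome 19, and each is measured by a single probe set, so no second probe set of Ifit1 checks its value.

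Usp18, a protease that removes ISG15 from proteins and restrains signalling at Ifnar2, was the other gene above the floor with a lower signal past 1.5-fold. It read 7.15 in the knockout and 7.83 in the wild type, a difference of -0.68 and 1.60-fold. Trim25, a ubiquitin ligase that activates the RNA sensor RIG-I, stood at 0.09, with 8.76 in the knockout and 8.66 in the wild type. Its probe sets pointed the same way, at 0.11 and 0.25 for the others.

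Among the antiviral effectors that remain, the differences were small. Oas1a, which makes the oligoadenylates that activate RNase L, read 7.80 in the knockout and 7.92 in the wild type. Oasl1, which in mouse represses translation of Irf7 messenger RNA, differed by -0.02. Rsad2, or viperin, an enzyme that makes a chain-terminating nucleotide, differed by -0.18. Each of these 3 genes was lower in the knockout array by less than 1.5-fold. Ifi35 read 9.91 in the knockout and 10.06 in the wild type by its brightest probe set, and its others differed by -0.24 and 0.03. Xaf1, a pro-apoptotic partner of XIAP, differed by -0.19. Samd9l, an interferon-inducible growth suppressor, went the other way at 0.24, with 8.89 in the knockout and 8.66 in the wild type.

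The sensors of double-stranded RNA above the floor differed by -0.18 and -0.13. Ifih1, or MDA5, read 7.55 in the knockout and 7.73 in the wild type. Eif2ak2, or PKR, the kinase that stops translation upon binding double-stranded RNA, read 7.91 in the knockout and 8.04 in the wild type, but its other probe sets differed by 0.21 and 0.19. No direction is therefore given for Eif2ak2.

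Interferon-induced GTPases act on the vacuoles of intracellular parasites. Igtp read 8.51 in the knockout and 8.90 in the wild type, a difference of -0.39. Irgm1 (-0.04) and Gbp2 (0.09) stood near 0. Of the membrane proteins that restrict viruses, Bst2, or tetherin, which holds budding virions at the cell surface, read 8.55 in the knockout and 8.91 in the wild type. Its difference of -0.36 and that of Igtp are the next lowest of the 33 compared genes after Ifit1 and Usp18. Ifitm3, which blocks entry of viruses from endosomes, read 12.21 in the knockout and 12.22 in the wild type.

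**Figure D3:**
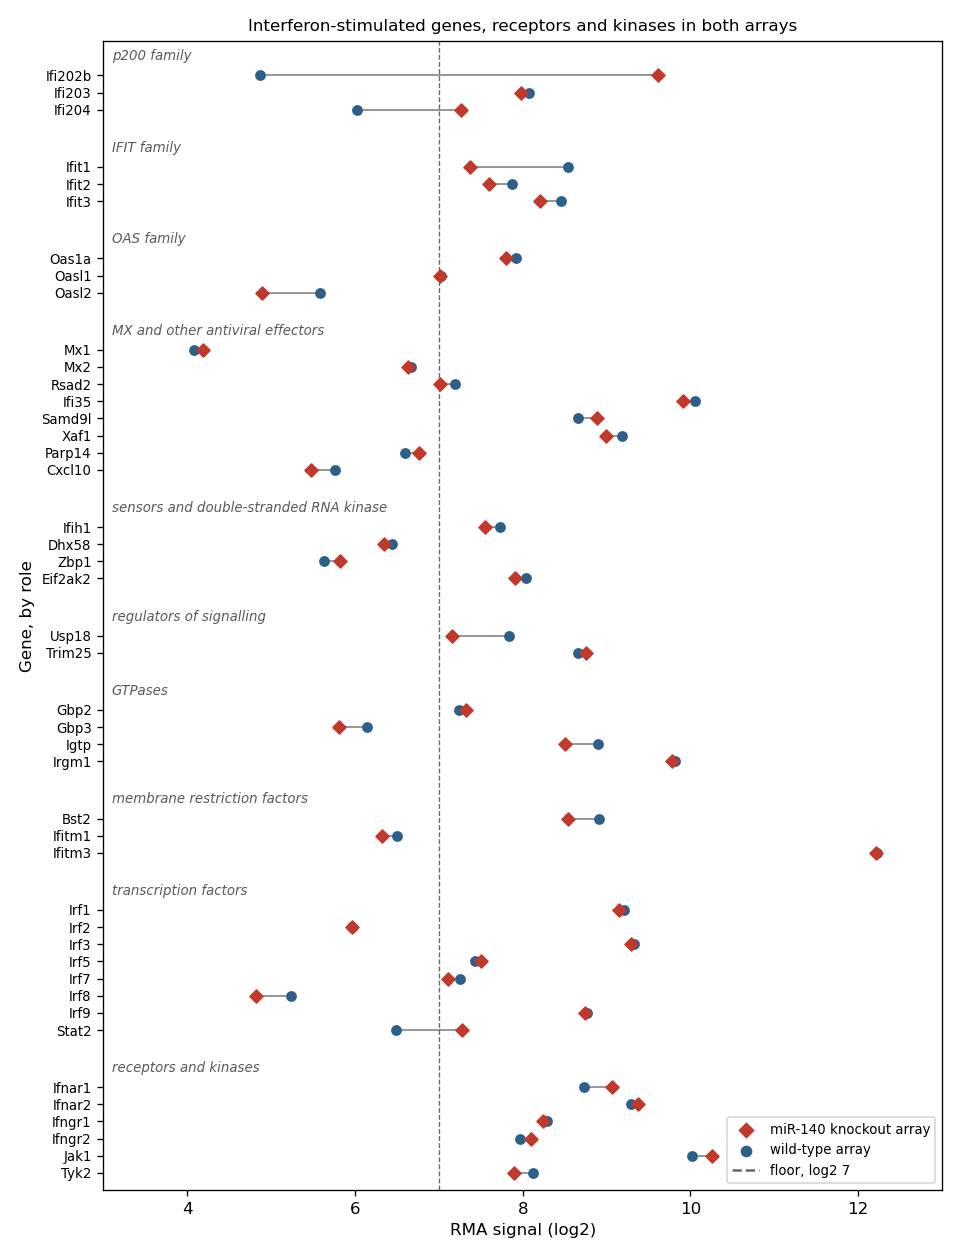
RMA log2 signal (horizontal axis) of the 44 listed genes with a probe set, grouped by role (vertical axis), in the knockout array (red diamonds) and the wild-type array (blue circles), with a line joining the values of a gene. The dashed line is the floor of 7; signals can be compared within a gene, not between genes, and Ifi202b has the longest line, with 9.61 in the knockout and 4.87 in the wild type.

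Transcription factors of the response stood near 0 with the exception of Stat2. Irf9, the DNA-binding subunit of the STAT complex, read 8.74 in the knockout and 8.77 in the wild type. Irf1, an activator of interferon-gamma responses, differed by -0.07. Irf3 (-0.03) and Irf7 (-0.14), which switch on the interferon genes themselves, and Irf5 (0.08) were close to it. Stat2 read 7.28 in the knockout and 6.48 in the wild type by the probe set used, a difference of 0.80. With low values raised to 7 it is 0.28, and the other Stat2 probe set read 6.40 in the knockout and 6.53 in the wild type. The higher signal of Stat2 thus rests on 1 of its 2 probe sets.

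Receptors and kinases had a median of 0.10 over 6 genes, beside -0.05 for all genes. Of the 6, 4 were higher and 2 lower, where 59.2% of all genes were lower, and 6 genes are too few to read a direction from. Ifnar1 read 9.07 in the knockout and 8.73 in the wild type, a difference of 0.34, and its dimmer probe set differed by 0.25. Ifnar2, the other chain of the type I receptor, stood at 0.09 by its brightest probe set and at -0.09 and -0.07 by the others. Ifngr1 (-0.05), the ligand-binding chain of the type II receptor, stood near 0. Its partner Ifngr2 stood at 0.12, and at 0.54 by a further probe set. Jak1, the kinase shared by both receptors, read 10.26 in the knockout and 10.02 in the wild type. Its 3 probe sets differed by 0.25, -0.01 and 1.69, so they do not give a common size for the gene. Tyk2, the kinase bound to Ifnar1, read 7.90 in the knockout and 8.12 in the wild type. With the second brightest probe set in place of the brightest, and Ifngr1 kept at its single probe set, the median of the group turned to -0.015 over 5 genes, as the second probe set of Ifnar1 is under the floor.

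**Figure D4:**
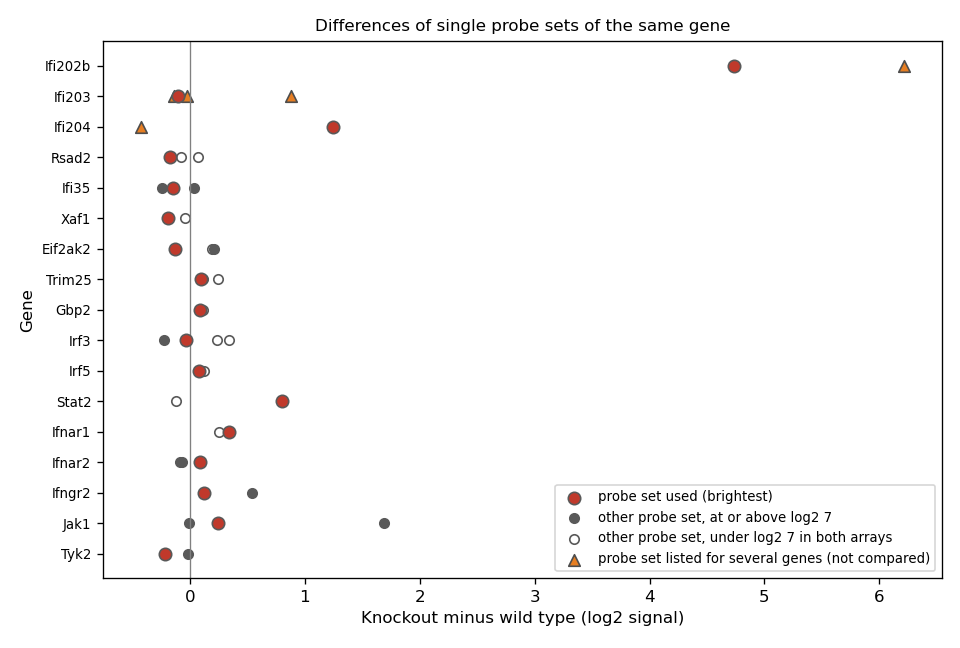
Knockout minus wild-type difference in log2 signal (horizontal axis) of single probe sets for the p200 genes and for compared genes with several probe sets (vertical axis). Red points are the probe sets used, grey and white points are other probe sets above and under the floor, and orange triangles are probe sets listed for several genes; both Ifi202b probe sets lie past 4, whereas those of Ifi204, Stat2, Eif2ak2 and Jak1 lie on both sides of 0.

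Above the floor, 8 listed genes had more than 1 probe set, and in 4 of them (Ifi35, Eif2ak2, Ifnar2 and Jak1) these differed in sign. How often this occurs over all genes is not given here, so the count only describes the listed genes. Over all genes of the array with at least 2 probe sets above the floor, the 2 brightest differed from each other by a median of 0.18. Of the 33 differences of the listed genes, 17 were no larger than that. Over all genes compared, 40.7% differed by more than 0.176, the size of the Parp14 difference.

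Another 11 listed genes stayed under the floor in both arrays and are given as values only. They differed by -0.69 to 0.19, with 7 lower, 3 higher and Irf2, a repressor of interferon responses, equal at 5.97 in both. Oasl2 was lowest, at 4.89 in the knockout and 5.58 in the wild type. The chemokine Cxcl10 read 5.47 in the knockout and 5.76 in the wild type, and the myeloid factor Irf8 read 4.82 in the knockout and 5.24 in the wild type. Mx1 (0.10), Mx2 (-0.03), Parp14 (0.18), Dhx58 (-0.10), Zbp1 (0.19), Gbp3 (-0.33) and Ifitm1 (-0.18) complete the group.

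The genes with an ISRE core in their promoter window can be set beside those without. Ifi204 (1.24) and Usp18 (-0.68) were compared but have no window, so they belong to neither group. Of 13 compared genes with the core, 11 had lower signal in the knockout array, beside 59.2% of all genes, and 10 of 12 without Eif2ak2, whose probe sets differ in sign. Their median was -0.13, with Ifit1 lowest and Stat2 highest. Of 11 with a window but no core, Ifi202b left out, 8 were lower (72.7%) and the median was -0.03, with a range of -0.27 to 0.24. Ifi35, counted among those 8, also has probe sets that differ in sign. Ifitm3 (-0.01) and Irgm1 (-0.04), counted as lower with the core, lay above the median of all genes (-0.05). Both group medians lie within 0.1 of that median.

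The other genes of the pathway also differed little. Of 81 further genes in 3 lists, 46 were compared, of which 30 had lower (65.2%) and 16 higher signal in the knockout array, none of them 2-fold. Of all genes 59.2% were lower, so this share lies near the background. Their median was -0.09, beside -0.05 for all genes. In the list of further interferon-stimulated genes (31 compared, 61.3% of them lower, median -0.12), Isg20, an exonuclease, was lowest at -0.63, followed by Rtp4 at -0.49 and Parp12 at -0.44, and Ifi30, a lysosomal thiol reductase, was highest at 0.43. In the list for sensing and interferon induction, Tlr4, the receptor for lipopolysaccharide, stood at 0.69 and Mavs, the adaptor of the RNA sensors, at -0.42, and 4 of 8 genes were lower. Ifnb1, the gene of interferon beta, was under the floor at 5.61 in the knockout and 5.54 in the wild type. All 7 compared signalling regulators were lower, with a median of -0.13 beside -0.05 for all genes, of which 59.2% were lower. The lowest was Pias3 at -0.28.

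The arrays also differed in ways that touch these values. Of 7 chondrocyte markers, 6 were above the floor and all 6 were at least 2-fold lower in the knockout array, beside 1.22% of all genes. Acan, the aggrecan core protein, read 7.99 in the knockout and 12.02 in the wild type. These 6 markers reached the floor in both arrays, and fewer chondrocytes and less RNA per chondrocyte cannot be told apart. Matn1, the chondrocyte marker under the floor, read 4.99 in the knockout and 6.12 in the wild type. Of 12 macrophage and leukocyte markers with a probe set, 5 were above the floor, and Ptprc, which marks all leukocytes, read 4.52 in the knockout and 4.32 in the wild type. As a description, the summed linear signal of all 12, also those under the floor, was 1363 in the knockout and 1230 in the wild type. That is a log2 ratio of 0.15, in which the brighter probe sets weigh most. The 5 compared had a median of 0.01, with Laptm5 at 0.49, Cd14 at 0.36, Cd68 at 0.01, Csf1r at -0.01 and Adgre1 at -0.19. Of 6 compared fibroblast markers, 5 had higher signal in the knockout array (median 0.21), where 59.2% of all genes were lower. Col3a1, a fibrous-tissue collagen, was 2.60-fold and Lum 1.95-fold higher, and Dcn was lower at -0.17. A further marker, Thy1, stayed under the floor and was lower, at 6.14 in the knockout and 6.90 in the wild type. The Y-linked gene Eif2s3y read 4.18 in the knockout and 8.86 in the wild type and Xist 10.60 in the knockout and 7.01 in the wild type, so the cultures differed in the sex of the mice or in their mix. The part of cell makeup, sex or strain background in the Ifi202b difference was not tested.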

How the data were processed

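The labels put 1 array in each group (miR-140 knockout and wild type). The deposited values are log2 signals, 1 per probe set. Per the labels' design text the authors made them by the RMA method (Robust Multichip Average), and Affymetrix Expression Console 1.1 is named in the submitters' processing notes. The log2 scale was read from the values. RMA forces like distributions on arrays processed together, which removes differences shared by most genes, and compresses those of dim probe sets.

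Of 45101 probe sets, 34945 carry a single gene symbol in the platform annotation and were used; 932 with several symbols name no gene. The brightest probe set of each gene by the mean of both arrays was kept, with a floor of log2 7 in either array (Python 3.11.15, pandas 2.3.3). Neighbours were ordered by a RefSeq table of GRCm38.p6. Members were named by role. Members and lists were chosen with earlier results of these data known. With 1 array per group no test was possible, and the small number of arrays limits precision. The counting was tested on simulated data.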

Additional observations from a re-analysis of the deposited data

Results flagged for a closer look

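The probe set that the platform lists for both LOC100044068 and Ifi202b was outside the comparison because it names several genes. It read 10.17 in the knockout array and 3.95 in the wild-type array, a difference of 6.21, which is a signal above the level of the wild-type array in data that no comparison used.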

How the results depend on the processing

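Settings were compared for 7 summary values. The median of the other interferon-stimulated genes stayed between -0.13 and -0.07 in all 10 alternatives. With values under 7 raised to 7, Ifi202b stood at 2.61 and its distance from that median was 2.72, by construction of the setting. In the other alternatives that gave a value, the Ifi202b difference was 4.74 to 4.79. Its only probe set matches several transcripts, so it has no value with probe sets of 1 transcript. Genes with a single probe set kept it in the setting with the second brightest, where the distance of Ifi202b from the median was 4.86. The median of receptors and kinases turned to -0.015 with the second brightest probe set, as Jak1 did (-0.011). The number of members at least 2-fold higher was 1 with a floor of 8, with low values raised to 7 and with probe sets of 1 transcript, and 0 when both arrays had to reach 7, an alternative added after the data were seen. The number lower was 2 at 1.5-fold. With 1 array per group no replicate could be left out and dim signals limit the fold of Ifi202b, Ifi204 and Stat2.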
